A study of Homo sapiens with 6 samples.

Results

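The complement genes described here are CFI, CFB, C3, C1R, C1S, CD46, CD55, CD59 and SERPING1, 9 of the 28395 Entrez genes counted in a study of MDA-MB-468, an established line of human breast cancer cells of the triple-negative kind. The set was listed by name with earlier results of these data known, and each symbol was matched to 1 gene. Of the 9, 8 passed the filter on low counts, as did 13950 genes in all, and CFB did not. The study sequenced RNA of 3 control libraries from parental cells and 3 from MDA-MB-468-PR, a derivative made by keeping the parental cells for 2 months in paclitaxel at 3 to 4.5 nM, a taxane that blocks the breakdown of microtubules. All 6 samples were labelled untreated and both lines were grown in DMEM with 10% serum. The labels place replicate 1 of each group in a 2020 batch and replicates 2 and 3 of each group in a 2021 batch. The resistant libraries all come from this single derivative, so an effect of paclitaxel cannot be told apart from other changes that arose while the derivative was made. The labels do not say that replicates were separate cultures, and the p-values therefore measure only how these libraries vary, which may be technical.

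Complement is a cascade of serum proteins that coats cells and can pierce their membranes, and many epithelial and tumour cells make some of its components themselves. In the classical pathway the proteases C1r and C1s, bound to C1q, cut C4 and C2. The resulting enzyme cuts C3, the protein on which all routes meet, and factor B extends this step in the alternative pathway. Regulators act at each stage. C1 inhibitor, encoded by SERPING1, blocks C1r and C1s. Factor I, encoded by CFI, degrades active C3 and C4 fragments together with cofactors such as CD46. CD55 takes the C3-cutting enzymes apart, and CD59 stops the final pore.

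Total counts ran from 37889818 to 93680129 per library. A count of 0 allows up to 3 counts, or 0.0312 to 0.0808 CPM depending on the library, where CPM is the count scaled to the library's total with TMM factors. The labelled cell type was checked against markers. The 6 epithelial markers, among them EPCAM and KRT8, summed to 5532 to 7158 CPM per control library and 5633 to 6024 CPM per resistant library. The 10 leukocyte markers summed to 13.9 to 23.7 and 14.7 to 22.7 CPM, and CD3D was at 0 in every library. CD14 had the highest counts of this list, with a control mean of 11.3 and a resistant mean of 12.4 CPM. CSF1R had a control mean of 4.78 and a resistant mean of 1.67 CPM, without overlap, but was not called (adjusted p = 0.0758 by edgeR). Of the 4 leukocyte markers tested, the other 3 had fold changes above 0, and none was called. The 8 fibroblast markers summed to 24.9 to 31.0 and 23.8 to 28.6 CPM, with LUM and THY1 at 0. Nearly all of this sum was COL1A1, whose mean was 26.4 CPM for the control group and 24.6 CPM for the resistant group. The 6 endothelial markers summed to 9.58 to 26.1 and 15.8 to 66.2 CPM. The 6 hepatocyte markers, from a cell type that makes most serum complement, summed to 0.0738 to 0.621 and 0.363 to 3.82 CPM, with TTR at 0. The higher resistant maxima of the endothelial and hepatocyte lists each rest on 1 gene, KDR at 63.8 CPM in resistant replicate 2 and FGB at 3.69 CPM in resistant replicate 1. PECAM1, TEK and VWF had log2 fold changes of -0.56, -0.24 and -0.29, while CDH5 and KDR had 1.09 and 1.23. Of both lists FGB alone was called. The part of KDR and FGB expression in the results was not tested.

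CD46 and CD59, both membrane regulators, had the highest counts per kilobase of exon of the 8 genes that could be ranked. The libraries were captured with exome probes, and how well each gene was captured is not known. The order below is therefore one of counts and may differ from that of transcripts. Per kilobase of exon in control libraries, CD46 stood at 31.3 ± 8.84 CPM (SD, n = 3), CD59 at 25.0 ± 3.01, CD55 at 11.1 ± 7.57 and C3 at 10.5 ± 0.955. SERPING1 followed at 3.25 ± 0.900 CPM per kilobase, then CFI at 1.04 ± 0.838, C1R at 0.927 ± 0.111 and C1S at 0.0877 ± 0.0278. CD46 and CD59, CD55 and C3, and CFI and C1R were neighbours in this order that did not differ beyond their spread. In resistant libraries the order was the same except that C3, at 14.8 ± 8.70 CPM per kilobase, stood above CD55, at 10.2 ± 4.91, again within the spread. The resistant libraries also overlapped between CD59, at 19.1 ± 2.32, and C3. They did so between SERPING1, at 5.63 ± 0.847, and CFI, at 3.69 ± 2.40. With the length of the longest transcript in place of all exons the order was the same in both groups, but levels in control libraries came to 2.14 CPM per kilobase for CFI, 22.7 for CD55, 16.6 for C3 and 0.184 for C1S.

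CFI, C1S and SERPING1 were called higher in the resistant line, and none of the 8 tested genes was called lower. All 3 have secreted products, as do C3 and C1R, which were not called. A gene was called when its p, from edgeR's quasi-likelihood test of a model holding batch and group, was under 0.05 after Benjamini-Hochberg adjustment over all 13950 genes. In such bulk RNA, fewer cells expressing a gene and less RNA per cell cannot be told apart. For comparison, 11.7% of all tested genes were called, 6.23% higher and 5.48% lower. Libraries of the groups did not overlap for 5 of the 8, namely CFI, C1S, SERPING1 and C1R, higher, and CD59, lower, against 20.9% of all tested genes. The median log2 fold change was 0.46 over the 8 genes and -0.0039 over all tested genes. Without control replicate 1 or resistant replicate 1, or in the 2021 batch alone, none of the 3 calls held. In these fits 7.51%, 7.06% and 7.18% of all tested genes were called.

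**Figure D1:**
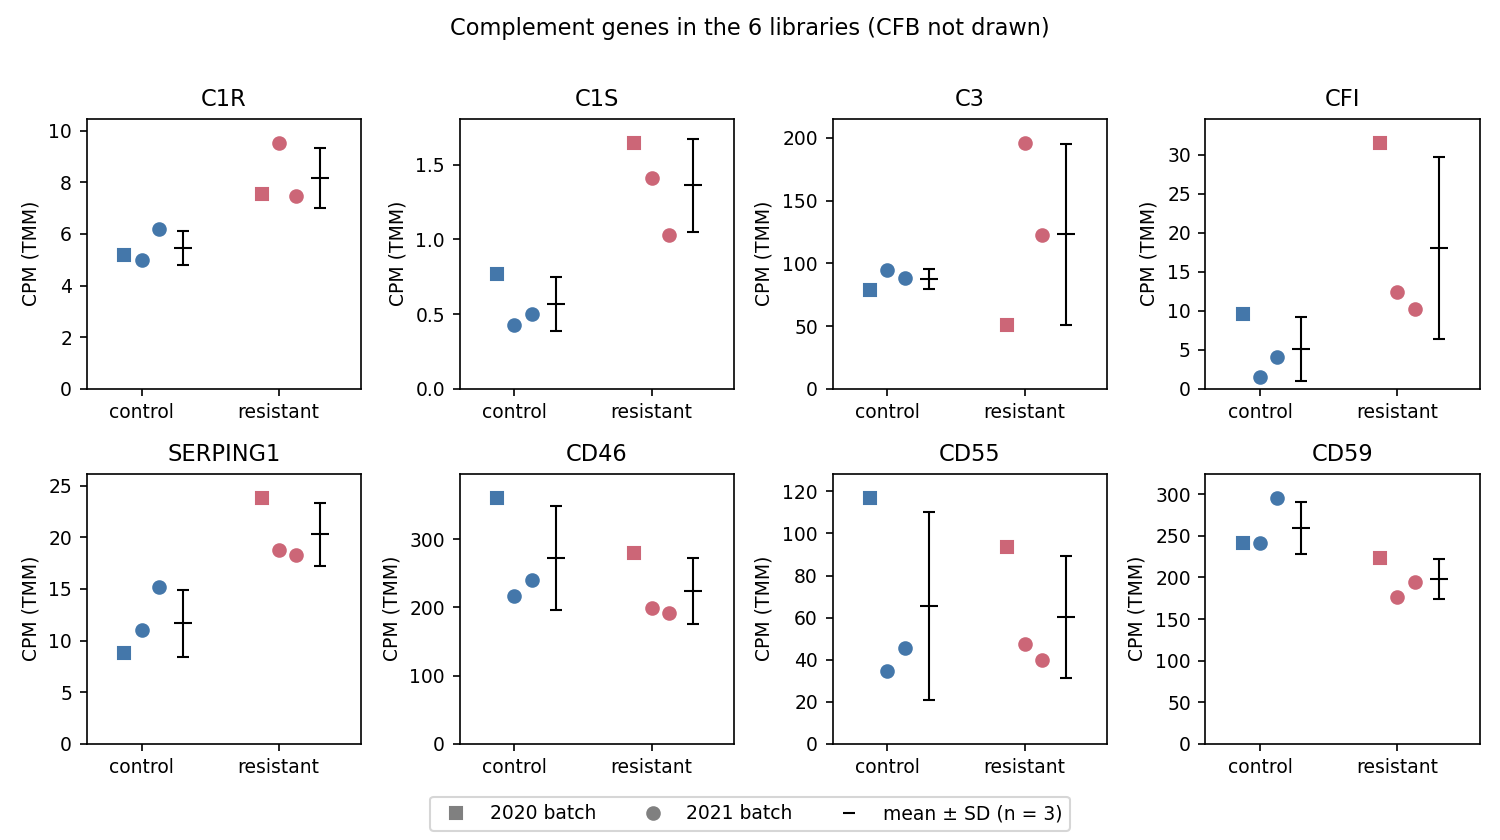
Level of 8 complement genes in each library, in CPM scaled by TMM on linear axes from 0; squares are 2020 and circles 2021 libraries, and bars show the mean and SD of 3 libraries. The resistant points of C1R, C1S, CFI and SERPING1 all lie above the control points, those of CD59 all below, and C3, CD46 and CD55 overlap.

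Upstream sequences are shown for CFI, the gene with the largest rise, for C1R, just short of the threshold, and for CD46, a membrane regulator with a negative fold change, so that the start regions of secreted and membrane members can be compared. RefSeq's promoter table (GRCh38.p14, 250 bases before to 50 after a start) held 11 entries for 6 members, CFI, CFB, C1R, CD46, CD55 and CD59. The table was searched on both strands for the interferon-activated GAS motif TTCNNNGAA, the interferon-stimulated response element, the NF-kappaB consensus, the C/EBP motif TTGCNNAA, the TATA box TATAAA, the GC box GGGCGG and the E-box CACGTG, and matches to different motifs were allowed to overlap. The 250 bases before the first listed start are printed 5′ to 3′ on the strand of the gene, with matches in capitals, for CFI at chr4:109802000-109802249 (minus strand), C1R at chr12:7092446-7092695 (minus strand) and CD46 at chr1:207751788-207752037 (plus strand).
CFI: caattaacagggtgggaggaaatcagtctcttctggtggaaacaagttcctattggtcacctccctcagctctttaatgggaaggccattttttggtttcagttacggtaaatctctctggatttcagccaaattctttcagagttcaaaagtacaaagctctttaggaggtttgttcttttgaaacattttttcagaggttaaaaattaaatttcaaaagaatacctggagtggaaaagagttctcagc
C1R: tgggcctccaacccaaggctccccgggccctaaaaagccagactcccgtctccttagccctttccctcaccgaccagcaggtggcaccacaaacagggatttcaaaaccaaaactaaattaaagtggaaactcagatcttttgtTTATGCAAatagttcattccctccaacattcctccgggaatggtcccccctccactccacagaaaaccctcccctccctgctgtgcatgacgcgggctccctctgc
CD46: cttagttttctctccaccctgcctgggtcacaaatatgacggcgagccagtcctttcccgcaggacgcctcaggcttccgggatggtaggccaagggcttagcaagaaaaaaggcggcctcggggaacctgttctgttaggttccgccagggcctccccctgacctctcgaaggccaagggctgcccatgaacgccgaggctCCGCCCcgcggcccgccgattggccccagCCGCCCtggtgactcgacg
CFI held none of the 7 motifs in its window, and 38.0% of these 250 bases are G or C, against a median of 58.0% over all 35116 entries. C1R held 1 C/EBP match at this start, printed in capitals, and its second start held a GAS and a C/EBP match. GC boxes stood in entries of CD46, CD55 and CD59, the membrane regulators, and in none of CFI, C1R or CFB, while 45.0% of all entries hold one. CD59 also held GAS matches at its first and second starts and C/EBP matches at another start. CFB held a GAS, an interferon-stimulated element, an NF-kappaB and a TATA match. Over all entries GAS was found in 7.66%, the interferon-stimulated element in 3.57%, NF-kappaB in 11.3%, C/EBP in 10.5% and the TATA box in 11.5%. A match describes letters, not binding.

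CFI, on chromosome 4 (109730982 to 109801999, GRCh38), showed the largest difference. It was at 9.54, 1.54 and 4.12 CPM in control replicates 1 to 3 and at 31.5, 12.4 and 10.2 CPM in resistant replicates 1 to 3. The resistant libraries were higher within each batch, but the 2020 control library lay close to the lower resistant libraries of 2021. CFI rose 3.71-fold (log2 fold change 1.89 ± 0.33 SE, adjusted p = 0.0144 by edgeR). The difference was 1.72 on the log2 scale in 2020 and 2.14 in 2021. CFI also moved with the batch and had a log2 difference of -1.60 for 2021 against 2020 (adjusted p = 0.0188 by edgeR), a comparison in which 22.9% of all genes were called. Its call ended without control replicate 1 (adjusted p = 0.109), without resistant replicate 1 (0.0794), in the 2021 batch alone (0.0752), without the low-count filter (0.0957) and without the batch term (0.262).

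C1S and C1R encode the paired proteases of the C1 complex and lie side by side on chromosome 12. C1S (7060718 to 7071032, GRCh38) was at 0.770, 0.429 and 0.502 CPM in control replicates 1 to 3 and at 1.64, 1.41 and 1.03 CPM in resistant replicates 1 to 3. These low levels rest on 24 to 34 counts per control library and 61 to 99 per resistant library, with no overlap. C1S rose 2.43-fold (log2 fold change 1.28 ± 0.27 SE, adjusted p = 0.0183). Its log2 difference was 1.06 within 2020 and 1.32 within 2021. Its call ended without control replicate 1 (adjusted p = 0.0566), without resistant replicate 1, 2 or 3 (0.0633, 0.0800 and 0.0614), in 2021 alone (0.0613) and without the batch term (0.112).

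C1R (7080219 to 7092445) was at 5.19, 4.97 and 6.20 CPM in control and 7.54, 9.51 and 7.46 CPM in resistant replicates 1 to 3. All resistant libraries were above all control libraries, with a log2 difference of 0.54 within 2020 and 0.60 within 2021. The fitted difference of 1.50-fold narrowly missed the threshold (log2 fold change 0.58 ± 0.16 SE, 95% interval 0.21 to 0.95, adjusted p = 0.0508). C1R passed with DESeq2 (adjusted p = 0.0185), without the low-count filter (0.0183) and without control replicate 3 (0.0238). Per kilobase, the level of C1S relative to C1R was 0.135, 0.0786 and 0.0737 in control and 0.198, 0.135 and 0.126 in resistant replicates 1 to 3. The ratio was higher in each resistant library than in the control libraries of its batch, while the 2020 control library was as high as the 2021 resistant libraries. C1S had fewer counts per kilobase than C1R in every library, though capture by the exome probes may differ between the genes. C1RL, a related gene next to C1R, had 18.7 ± 2.26 CPM (SD, n = 3) in control and 21.6 ± 2.47 CPM in resistant libraries and was not called (adjusted p = 0.274).

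SERPING1, on chromosome 11 (57597685 to 57614848), encodes the inhibitor of both C1 proteases. It was at 8.82, 11.0 and 15.2 CPM in control and at 23.8, 18.8 and 18.3 CPM in resistant replicates 1 to 3. The groups did not overlap, and the gap was wide in 2020 and narrow in 2021. SERPING1 rose 1.74-fold (log2 fold change 0.80 ± 0.21 SE, adjusted p = 0.0447). Its log2 difference was 1.43 within 2020 and 0.51 within 2021. Blocking on the replicate number gave an adjusted p of 0.0671. Its call also ended without control replicate 1 or 2 (adjusted p = 0.153 and 0.155), without resistant replicate 1, 2 or 3 (0.159, 0.0853 and 0.110), in 2021 alone (0.152) and without the batch term (0.122).

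C3, on chromosome 19 (6677704 to 6720650), was the member whose direction differed most between batches. It was at 78.9, 94.7 and 88.5 CPM in control and at 50.7, 196 and 123 CPM in resistant replicates 1 to 3. The resistant library was the lower one in 2020, and both resistant libraries were the higher ones in 2021. The log2 difference was -0.64 in 2020 and 0.76 in 2021, and the fit over both batches did not pass (log2 fold change 0.33 ± 0.34 SE, 95% interval -0.51 to 1.18, adjusted p = 0.594). A test of the difference between batches gave 1.43 ± 0.38 SE on the log2 scale for C3 (unadjusted p = 0.00561, adjusted p = 1 by edgeR). For SERPING1 the same test gave -0.94 ± 0.33 SE (unadjusted p = 0.0175, adjusted p = 1). No gene passed that test after adjustment, and 187 of 13950 (1.34%) had an unadjusted p under 0.05. In 2021 alone the adjusted p of C3 was 0.0715, and without resistant replicate 2 its log2 fold change was -0.015.

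**Figure D2:**
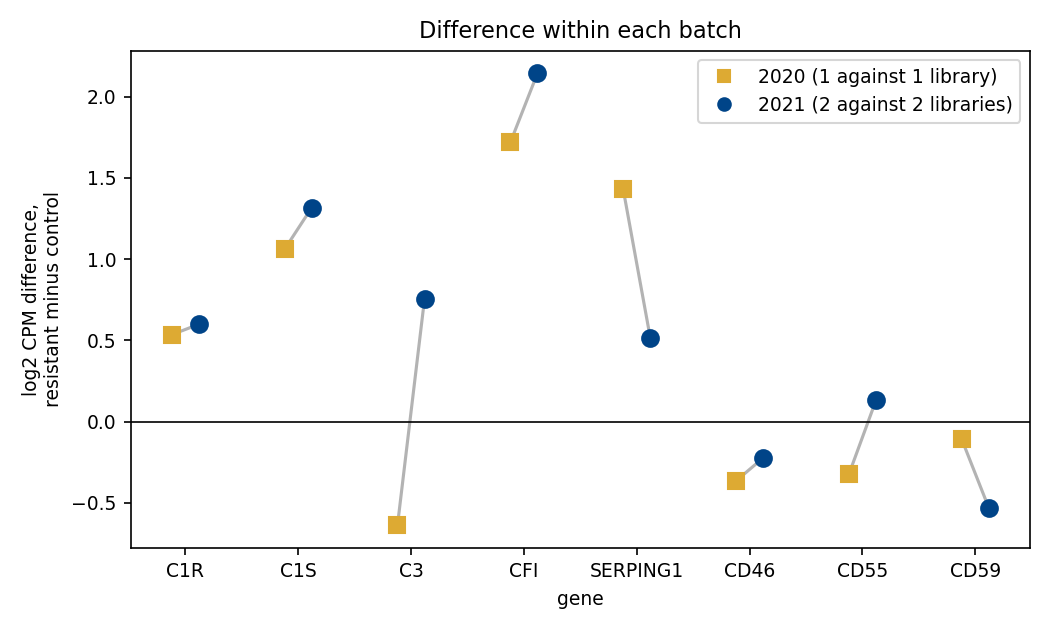
Resistant minus control difference in log2 CPM within the 2020 batch (squares, 1 library a group) and the 2021 batch (circles, 2 libraries a group) for each gene. The 2 points lie on the same side of 0 for 6 of 8 genes, while C3 went from -0.64 to 0.76 and CD55 from -0.32 to 0.13.

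Among the members, the membrane regulators CD46, CD55 and CD59 did not pass the test. CD59, on chromosome 11 (33703010 to 33736479), was at 241, 242 and 295 CPM in control and at 224, 176 and 194 CPM in resistant replicates 1 to 3. Each resistant library was below each control library, but the difference did not pass (log2 fold change -0.40 ± 0.13 SE, 95% interval -0.70 to -0.089, adjusted p = 0.100). It passed with DESeq2 (adjusted p = 0.0373) and without the low-count filter (0.0358). An overlapping gene, C11orf91, may share reads with CD59.

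CD46, on chromosome 1 (207752038 to 207795516), was at 361, 217 and 240 CPM in control and at 280, 200 and 192 CPM in resistant replicates 1 to 3. The groups overlapped, with both 2020 libraries high, while the resistant library was lower in each batch. The fit gave a log2 fold change of -0.27 ± 0.10 SE (95% interval -0.51 to -0.033, adjusted p = 0.139), and DESeq2 gave an adjusted p of 0.0494. CD46 had a log2 difference of -0.59 for 2021 against 2020 (adjusted p = 0.00980), and a pseudogene overlaps its locus.

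CD55, on the same chromosome (207321678 to 207360966), was at 117, 34.5 and 45.5 CPM in control and at 93.4, 47.3 and 39.9 CPM in resistant replicates 1 to 3. Here the batches stood apart and the groups did not. For 2021 against 2020 the log2 difference of CD55 was -1.33 (adjusted p = 0.00131), whereas resistant and control libraries differed by -0.026 ± 0.14 SE (95% interval -0.36 to 0.30, adjusted p = 0.931). CFI, CD46 and CD55 were the 3 of 8 members called between batches, all lower in 2021. Over all tested genes 22.9% were called between batches, with 11.5% called as higher in 2021. A long non-coding RNA gene overlaps CD55.

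CFB could not be read as a level. It had 1 count in control replicate 1, 1 in resistant replicate 1 and 0 in the other 4 libraries. It lies on chromosome 6 (31946095 to 31952084) between C2, with no count, and C4A and C4B, with 2 and 3 counts over all libraries. Other genes of this region that cells generally need were also at 0 in all 6 libraries, among them DDX39B, an RNA helicase of mRNA export, VARS1, the valyl-tRNA synthetase, and LSM2, a splicing factor subunit. Of 167 protein-coding genes that start between 29 and 34 Mb on chromosome 6, 139 (83.2%) had at most 10 counts in all libraries together, against 21 of 167 (12.6%) in the 5 Mb on either side. The near absence of counts for CFB, C2, C4A and C4B is therefore shared with the region, and its cause was not tested. C4A and C4B are also near-identical copies between which reads cannot be divided reliably.

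Other complement genes were mostly too low to test, and the few called were higher in the resistant line. Over all tested genes 6.23% were called higher and 5.48% lower, with a median log2 fold change of -0.0039. Of 25 other components 5 were tested, 1 rose and none fell, with a median of 0.58. Of 27 other regulators and receptors 9 were tested, 3 rose and none fell, with a median of 0.49. Of these 9, 6 had values above 0 and 3 below, namely CLU at -0.63, C5AR1 at -0.21 and C1QBP at -0.20. For CLU and C1QBP all resistant libraries were below all control libraries, but neither was called (adjusted p = 0.0703 and 0.278 by edgeR). C5, the component after C3 in the cascade, was at 10.7, 7.31 and 8.53 CPM in control and at 17.0, 10.2 and 12.8 CPM in resistant replicates 1 to 3. These values overlap between batches, and C5 rose 1.50-fold (adjusted p = 0.0297). Its call ended without control replicate 1 or 2 (adjusted p = 0.143 and 0.0607), without resistant replicate 1 or 3 (0.145 and 0.170), in 2021 alone (0.144) and without the batch term (0.277). All genes of C1q, C1QA, C1QB and C1QC, had 0 counts in every library.

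CR2, the complement receptor for C3 fragments best known from B cells, differed little among the libraries of each group. It was at 5.44, 5.38 and 5.21 CPM in control and at 11.7, 10.8 and 10.8 CPM in resistant replicates 1 to 3, with a wide gap between the groups in both batches. CR2 rose 2.07-fold (log2 fold change 1.05 ± 0.12 SE, adjusted p = 0.00220), by 1.10 in 2020 and 1.02 in 2021, and stayed called in all 16 alternatives (adjusted p up to 0.0245). C4BPA, a chain of the C4b-binding protein that serves factor I as a cofactor, was at 1.34, 0.715 and 0.531 CPM in control and at 1.99, 1.97 and 1.65 CPM in resistant replicates 1 to 3. The groups did not overlap, and C4BPA rose 2.32-fold (adjusted p = 0.0302). Its call ended without control replicate 2 or 3 (adjusted p = 0.0768 and 0.0550), without resistant replicate 2 or 3 (0.107 and 0.121) and without the batch term (0.181). SUSD4, a membrane protein with complement control modules, had 11.5 ± 3.57 CPM in the control group and 19.8 ± 3.95 CPM in the resistant group, with no overlap, and rose 1.74-fold (adjusted p = 0.0454; 0.0917 with the replicate number as a block). Its call ended without control replicate 1 (0.134) or resistant replicate 1, 2 or 3 (0.125, 0.0566 and 0.197), in 2021 alone (0.127) and without the batch term (0.191).

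**Figure D3:**
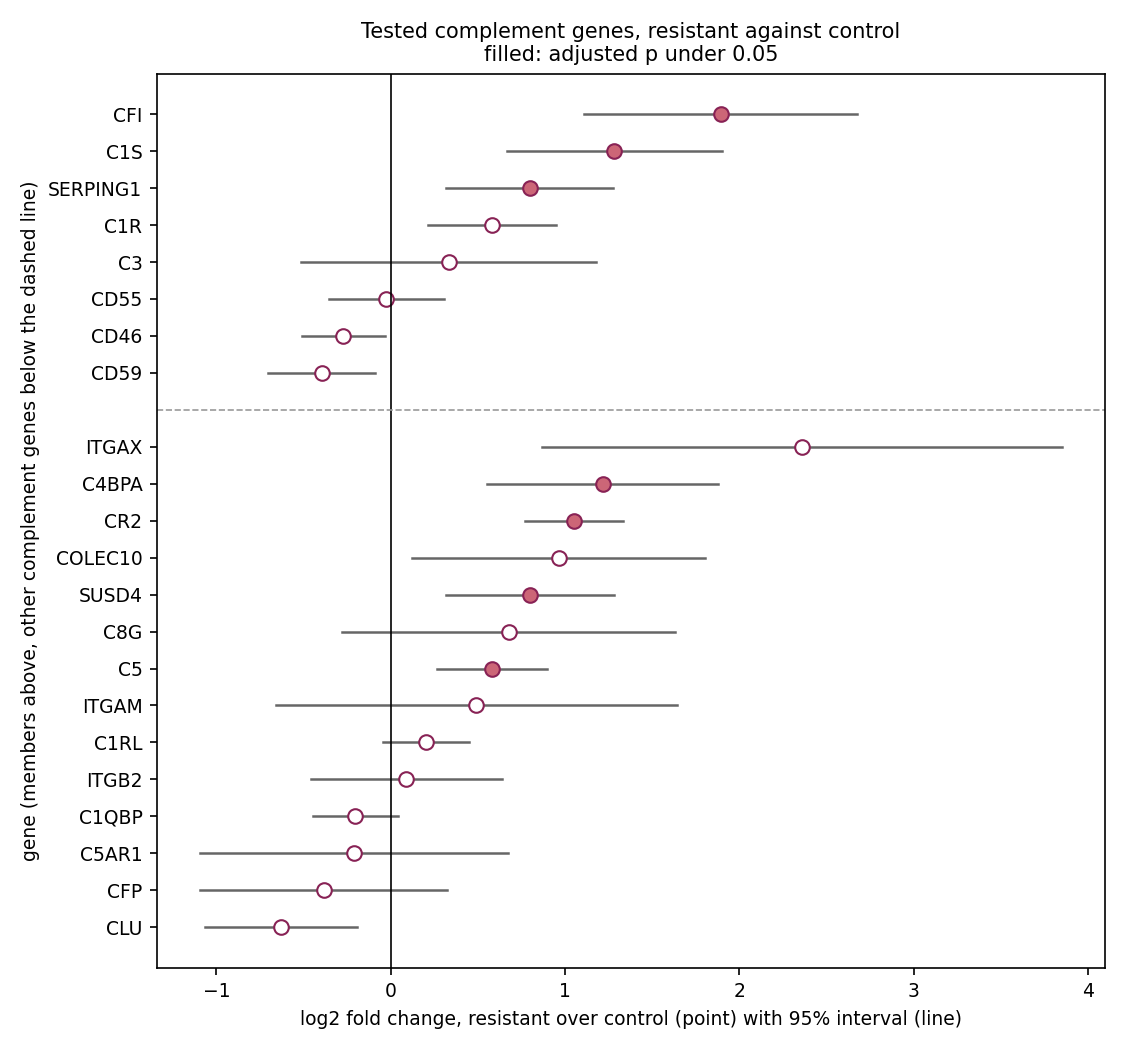
Fitted log2 fold change (points) with its 95% interval (lines) for every tested complement gene, the listed members above the dashed line and other components, regulators and receptors below it. Filled points, CFI, C1S, SERPING1, C4BPA, CR2, SUSD4 and C5, have an adjusted p under 0.05 and all lie to the right of 0.

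CD55 and CD46 lie in a cluster of complement regulators on chromosome 1 in which neighbours differed. CR2 starts 132.7 kb and CD46 430.4 kb above CD55 by coordinate, and C4BPA 217.4 kb below it (-217.4 kb). C4BPA and CR2 were higher in the resistant line, while CD55 between them and CD46 beyond them were not called. C4BPB had 0 to 7 and CR1 0 to 2 counts per library, too few to test. Among the 20 tested genes nearest to CD55, 10 on each side, 4 rose and 2 fell, with a median of -0.026. The corresponding median was 0.018 around CFI (1 rose, none fell), 0.12 around C1S (2 rose, none fell), -0.17 around SERPING1 (none rose, 1 fell), -0.035 around C3 (1 rose, none fell), -0.30 around CD59 (1 rose, 2 fell), 0.12 around C1R (3 rose, none fell) and -0.020 around CD46 (3 rose, 1 fell). It was -0.62 around CFB, where 1 rose, 7 fell and 16 of 20 had values below 0. Those 20 genes span the sparsely counted stretch of chromosome 6, and the cause of their shift was not tested. Windows of members that lie close together share genes, so their counts are not separate. ENO2 and CLSTN3 rose around both C1S and C1R, and the remaining riser around C1R is C1S itself. C4BPA, CR2 and LAMB3 are counted around both CD55 and CD46. Over all tested genes 6.23% were called higher and 5.48% lower.

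**Figure D4:**
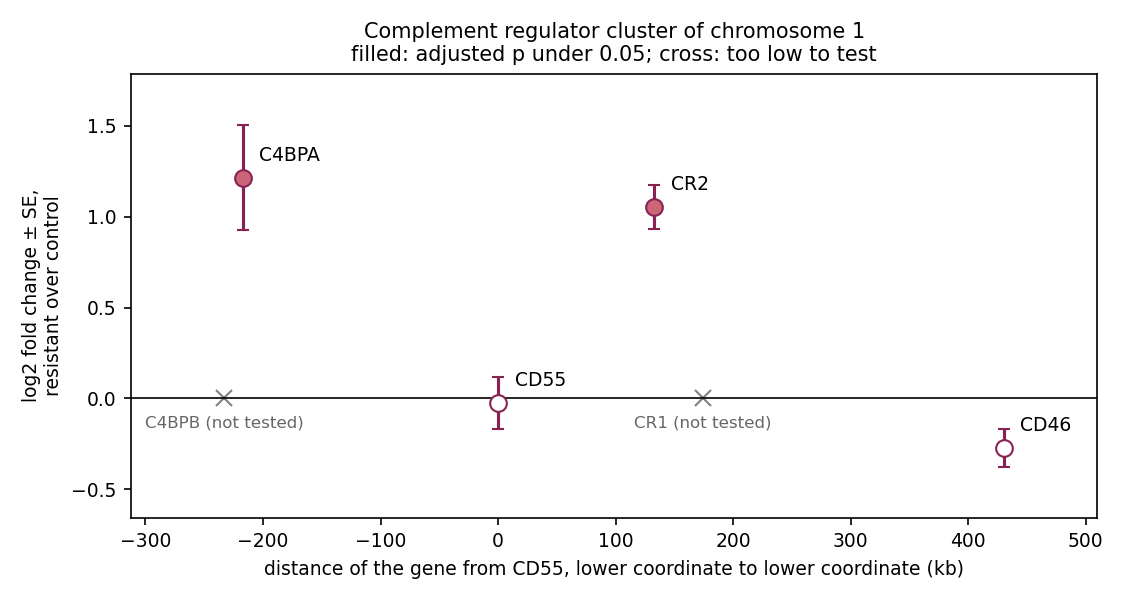
Fitted log2 fold change ± SE (resistant over control) of the complement regulator genes of chromosome 1 against their distance from CD55 in kilobases; crosses on the zero line mark genes too low to test and carry no value. C4BPA (1.22) and CR2 (1.05) are filled as called, while CD55 (-0.026) and CD46 (-0.27) are open.

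CD55 and CD59 are held in the membrane by a GPI anchor, so the genes that make and attach this anchor were read beside them. Of 28 listed genes 26 were tested, none rose and 4 fell, and the median log2 fold change was -0.15, with 17 of 26 below 0. Over all tested genes 5.48% were called lower and 6.23% higher, and the median was -0.0039. PIGO, which adds a phosphoethanolamine to the anchor, fell 1.86-fold from 62.9 ± 22.2 to 33.5 ± 4.72 CPM (adjusted p = 0.0184). PIGA, needed for the first step of anchor synthesis, fell 1.55-fold from 27.1 ± 12.9 to 17.9 ± 9.76 CPM (adjusted p = 0.0159), and its libraries overlapped between batches. DPM3, a subunit of the enzyme that makes the mannose donor, fell 1.38-fold (adjusted p = 0.0346). Its call ended with the replicate number as a block (0.0506), without control replicate 1, without each resistant replicate, in 2021 alone and without the batch term (up to 0.166). PIGC, another subunit of the first enzyme and named after its values were seen, fell 1.34-fold (adjusted p = 0.0272), a call that ended without control replicate 1, without each resistant replicate, in 2021 alone and without the batch term (0.0980 to 0.206). PIGO lost its call without control replicate 1, without each resistant replicate, in 2021 alone and without the batch term (adjusted p of 0.0597 to 0.108). PIGA lost it without resistant replicate 2 or 3 and without the batch term (0.0689 to 0.603). PIGW and PIGY were listed at 0 in every library, and the cause of these 0 counts was not tested.

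Of 21 listed transcription factors and cytokines known to induce complement genes, 15 were tested, 2 rose and none fell, with a median log2 fold change of 0.072. That number of calls is near the share of 11.7% over all tested genes. IL6, an inflammatory cytokine, was at 3.65, 0.125 and 0.221 CPM in control and at 15.5, 0.990 and 0.519 CPM in resistant replicates 1 to 3. Both 2020 libraries were above all 2021 libraries, and IL6 rose 4.21-fold (adjusted p = 0.00443), a call that ended without the batch term (0.686). IRF9, a subunit of the interferon-activated ISGF3 complex, had 14.4, 11.6 and 13.0 CPM in control and 19.0, 19.9 and 16.5 CPM in resistant replicates 1 to 3, without overlap, and rose 1.42-fold (adjusted p = 0.0312). With the replicate number as a block, without any replicate except control replicate 3, in 2021 alone and without the batch term, the call of IRF9 ended (adjusted p of 0.0528 to 0.160). TNF was at 0 in every library but lies in the sparsely counted region of chromosome 6.

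For each called member, the 2 genes of most like pattern were sought among the 10517 tested genes that averaged 5 CPM or more, by the root mean square difference of centred log2 CPM over the 6 libraries. For CFI these were CP, which encodes the copper carrier ceruloplasmin (0.345), and ZNF711, a zinc finger gene (0.378). CP had 60.8 ± 34.2 CPM in the control group and 208 ± 104 CPM in the resistant group and was not called (adjusted p = 0.111). CP passed with DESeq2 (0.0283), limma voom (0.0234), without robust fitting (0.0299) and without control replicate 3 (0.0118). For C1S they were DGKA, a diacylglycerol kinase (0.136), and RASL11A, a small GTPase of the Ras family (0.162). For SERPING1 they were PFN2, a profilin (0.145), and PRKCQ, a protein kinase C isoform (0.158).

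**Figure D5:**
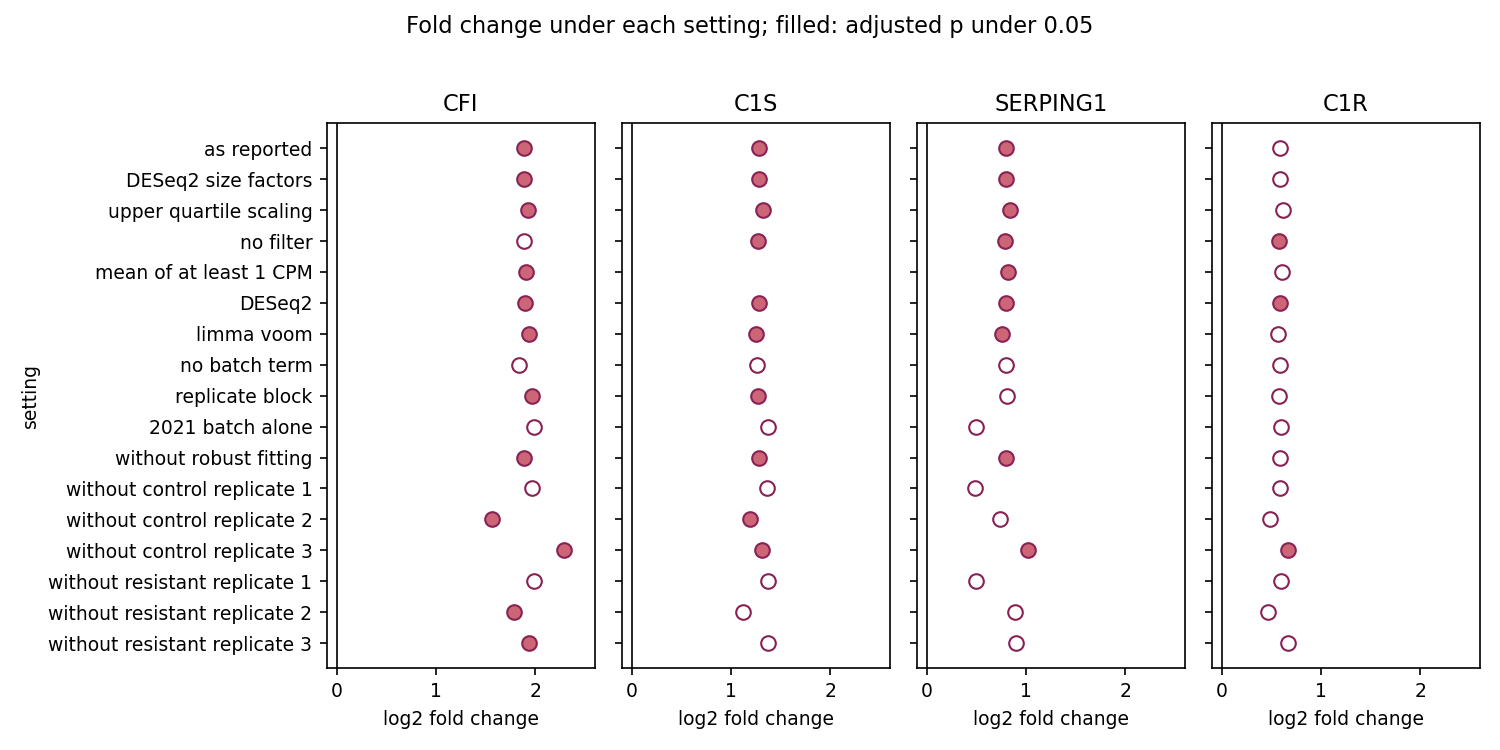
Fitted log2 fold change of CFI, C1S, SERPING1 and C1R under each processing setting, filled where the adjusted p is under 0.05; C1S has no point where it fell under the minimum of 1 CPM. All points lie to the right of 0, from 1.57 to 2.29 for CFI, while the points of CFI, C1S and SERPING1 are open when a 2020 library is left out.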

How the data were processed

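RNA-seq was done on 3 control and 3 resistant libraries. Per the labels' protocols, each started from 100 ng of total RNA, used a KAPA HyperPrep kit and was captured with Twist exome probes. The deposited values are whole-number counts per Entrez gene that the authors did not normalise. Trimmomatic 0.38, STAR 2.7.8a, featureCounts of Subread and the build GRCh38 are named, per the submitters' processing notes. The annotation release, the strand setting and the treatment of reads with several matches were not given in the sources used here, so overlapping or near-identical genes can exchange reads. No molecular identifiers are named, so the limits given for a count of 0 cover counting error only.

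Symbols and positions came from RefSeq's gene table (GRCh38.p14), which matched 27745 of 28395 IDs. Genes were filtered with filterByExpr by group, scaled by TMM and tested with edgeR 4.0.16 (quasi-likelihood test, robust fitting, batch and group as terms, 3 residual degrees of freedom) in R 4.3.3. Log2 CPM used a prior count of 2, standard errors derive from the F statistic, and intervals are 95%. Exon lengths are unions of GENCODE 29 exons. Alternatives were DESeq2 1.42.0, limma 3.58.1 voom, other scalings and filters, other covariates, the 2021 batch and leaving out each replicate. A fit without robust estimation was added after the data were seen.

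The members and lists were chosen with earlier results of these data known. Context genes were named by rule, up to 3 risen and 3 fallen of each list at a mean of at least 1 CPM, by size of change. Pairs of libraries within a group differed beyond sampling of reads (chi-square divided by its degrees of freedom from 70 to 215). Deviations from the group mean of same-numbered control and resistant libraries correlated across genes at 0.729, 0.143 and 0.155. Control 2 with resistant 3 correlated at 0.57 and control 3 with resistant 2 at 0.477. The replicate number was also used as a block, although within 2021 same-numbered libraries were less alike than cross-numbered ones. The labels do not say that equal numbers mark pairs. The fit was tested on simulated data made from these 13950 genes, 200 of them changed, in 5 rounds. It found 43.6% of the changes of 1.5-fold and 82.4% of those of 2-fold, while unchanged genes made up 9.27% of its 863 calls. That share is above the 0.05 that the adjusted p threshold aims at. The simulation changed fewer genes than the 1633 called in the data, so these shares may not carry over.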

Additional observations from a re-analysis of the deposited data

Results flagged for a closer look

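C3 moved in opposite directions in the batches. Its resistant library was lower than its control library in 2020 (50.7 against 78.9 CPM), and both resistant libraries were higher than both control libraries in 2021 (196 and 123 against 94.7 and 88.5 CPM). The log2 difference of 2021 minus that of 2020 was 1.43 ± 0.38 SE (unadjusted p = 0.00561, adjusted p = 1 over 13950 genes, edgeR quasi-likelihood test). With 1 library a group in 2020, this rests on a single pair there.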

How the results depend on the processing

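Each complement member kept its direction under all alternatives run, except CD55 and C3. The log2 fold change of CD55 was 0.12 in the 2021 batch alone and 0.010 with upper quartile scaling, and lay between -0.18 and 0.12 when single replicates were left out. That of C3 lay between -0.015 and 0.79 when single replicates were left out. With DESeq2 6 members were called, 4 higher and 2, CD46 and CD59, lower, against 15.8% of all tested genes. Without the low-count filter 4 were called, 3 higher and 1, CD59, lower, against 12.1% of all genes. The number called was 3 as reported, all higher, against 11.7% of all tested genes. It was 0 without the batch term and 0 in the 2021 batch alone, where 2.59% and 7.18% of all tested genes were called. In those fits with no call, by edgeR, 5 and 6 members had an unadjusted p under 0.05. Leaving out single replicates gave 0 to 4 called members, with 0 without control replicate 1 or resistant replicate 1 and 1 without resistant replicate 2 or 3. The fits with 0, like that of 2021 alone, draw the group difference from the 2021 libraries only. Without control replicate 1 7.51% of all tested genes were called, and without resistant replicate 1 7.06%. With the replicate number as a block 2 members were called and SERPING1 was lost, against 9.34% of all tested genes. The block also ended the calls of SUSD4, DPM3 and IRF9, and it changed no other call among the members, the named context genes, PIGC, FGB, C1RL and CP. Over all genes the number called was 1633 as reported, 362 without the batch term, 1012 in the 2021 batch alone and 617 to 1985 when single replicates were left out. It was 2204 with DESeq2, 2286 without the low-count filter and 1604 without robust fitting, the alternative chosen after seeing the data. Depth limits C1S and C4BPA, which rest on at most 99 and 159 counts per library.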

Other observations

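FGB and IL6, outside the complement list, were like CFI highest in the 2020 library of each group. FGB, the hepatocyte marker called above, encodes the beta chain of fibrinogen and was singled out after its values were seen. It was at 0.547, 0.0358 and 0.0295 CPM in control and at 3.69, 0.225 and 0.249 CPM in resistant replicates 1 to 3. The 2020 resistant library was the highest and the 2020 control library the next, and the 2021 resistant libraries exceeded the 2021 control libraries. FGB was called higher in the resistant line (log2 fold change 2.77 ± 0.35 SE, adjusted p = 0.00259, edgeR quasi-likelihood test), from 2 to 22 counts per control library and 15 to 137 per resistant library. IL6 showed the same order, with 147 counts in the 2020 control library and 575 in the 2020 resistant library against 7 to 66 in the 2021 libraries. The call of FGB ended without the batch term (adjusted p = 0.447) and held in the other alternatives in which it was tested.

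The sparsely counted region of chromosome 6 also holds CLIC1, an abundant chloride channel protein, and NELFE, a subunit of a transcription elongation factor, with 0 and 1 counts in all libraries together. AIF1, used here as a leukocyte marker, lies there too, so its count of 0 says nothing about leukocytes. Of the 167 protein-coding genes of the region 19 were tested, against 133 of 167 in its flanks.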
